A study of Mus musculus with 8 samples.

Results

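Chromosome 19 is the shortest mouse autosome, and its expressed genes were followed here from one end to the other in mouse malignant mesothelioma. A member is any gene that the count tables place on chromosome 19 and whose mean level over all samples was at least 5 CPM (a gene's reads relative to the library's total, scaled by TMM). By that rule 421 of the 1098 chromosome 19 genes in the tables were members. Of the remaining genes, 306 had no count in any sample and 371 were counted but stayed under the threshold. The members just above it were Rbp4 at 5.09 CPM, ENSMUSG00000054178 at 5.27 CPM and Snx32 at 5.49 CPM, and the genes just below it were Gstp2 at 4.88 CPM, Rpl9-ps6 at 4.84 CPM and Batf2 at 4.67 CPM. The first member starts at 3260924 and the last at 61224402 on GRCm38, 409 of the 421 are annotated as protein coding, and all 421 passed the low-count filter of the test. The mean was under 5 CPM in the triples for 10 members and in the doubles for 10. Such genes are members only through the other group.

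Malignant mesothelioma is a cancer of mesothelium, the cell layer that lines pleura and peritoneum, and the series concerns its pleural form in conditional mouse models. The labels give 2 samples as double knockout, with Nf2 and Cdkn2a named in the titles, and 6 as triple knockout, with Nf2, Cdkn2a and Bap1. By these labels, knockout of Nf2, which encodes the Hippo pathway regulator merlin, and of Cdkn2a, which encodes cell cycle inhibitors, is shared by all 8 samples, and that of Bap1, which encodes a histone H2A deubiquitinase, separates the groups. Bulk RNA was sequenced after messenger RNA enrichment, and the growth protocol describes cells in RPMI medium with serum, antibiotics, glutamine and insulin. The sources used here do not give strain, age, sex, any treatment, the means of Cre delivery, or whether samples came from separate animals. P-values therefore measure the spread between these samples, which may in part be technical.

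Each triple sample held between 28326756 and 30232440 counts, double 1 held 32082535 and double 2 held 26847202. Double 1 stood apart: its TMM factor was 0.771, against 1.032 in double 2 and 0.994 to 1.101 in the triples, and mitochondrial genes took 4.04% of its counts against 2.01% and 1.16 to 2.33%. All 8 samples had counts for each of the 3 targeted genes, so these gene-level counts do not check the labels. Bap1 had 106 and 71.2 CPM in the doubles and 43.1 to 72.1 CPM in the triples (edgeR adjusted p = 0.122), Nf2 had 165 and 109 CPM against 62.7 to 100.3 CPM (0.103), and Cdkn2a had 1.54 and 5.16 CPM against 4.05 to 8.76 CPM (0.306). The 12 mesothelial markers summed to 348 and 1429 CPM in the doubles and 138 to 1113 CPM in the triples, with Msln at 251 and 342 CPM in the doubles. Among the other markers of the list, Wt1 stood at 0 and 0.036 CPM in the doubles and 0.317 to 33.2 CPM in the triples. Upk3b stood at 0.081 and 0.036 CPM in the doubles and exceeded 1 CPM only in triple 3, at 173 CPM. In double 2 most of the sum came from markers other than Msln, Wt1 and Upk3b. Summed over 10 genes each, leukocyte markers came to 762 and 1689 CPM in the doubles and 1610 to 2470 CPM in the triples. Markers of embryonic muscle summed to 7914 and 2405 CPM against 8.95 to 175 CPM, and those of adult skeletal muscle to 71940 and 2732 CPM against 134 to 14080 CPM. Since transcripts of leukocytes and adult muscle were counted in all samples, the labels leave it uncertain whether RNA came from cultured cells or from whole tumours. In bulk RNA, fewer cells of a type and less RNA per cell cannot be told apart.

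As background, a whole mouse autosome is a mixed sample of cellular roles, although some genes that lie side by side belong to the same family. Chromosome 19 is gene-dense near its centromeric end and carries, among others, the desaturase cluster Fads1 to Fads3, the insulin-degrading enzyme gene Ide, the Ifit interferon genes, the Ms4a genes of leukocytes and the long noncoding RNAs Malat1 and Neat1. A median over all its members gives the level of the chromosome's RNA in a sample, largely without regard to any single pathway, and a member can then be read as following that level or departing from it.

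Each sample's log2 CPM minus the mean of the 6 triple samples was taken for every member (for a triple sample, minus the mean of the other 5), and the median over members was the chromosome's level. In double 2 that level was 0.40 log2, a ratio of 1.32. In double 1 it was 0.042 log2, a ratio of 1.03. The 6 triple samples ran from -0.035 to 0.069 log2 (SD 0.044, n = 6). Double 2 thus lay far outside the range of the triples, and double 1 lay within it.

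The same median over genes of the other 18 autosomes, chosen by the same threshold (11100 genes), was 0.0011 log2 in double 2 and -0.018 log2 in double 1. Relative to those genes, the chromosome 19 level was 0.40 log2 in double 2, 0.060 log2 in double 1 and -0.034 to 0.047 log2 in the triples (SD 0.029, n = 6). In double 2 no other autosome reached the level of chromosome 19: the others ran from -0.073 log2 (chromosome 5) to 0.35 log2 (chromosome 8). In double 1, 7 of the other 18 autosomes were higher than chromosome 19, and they ran from -0.19 log2 (chromosome 17) to 0.29 log2 (chromosome 8). None of the 114 medians of a single autosome in a single triple sample reached 0.40 log2, the range being -0.31 log2 (triple 3, chromosome 15) to 0.32 log2 (triple 6, chromosome 13).

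**Figure D1:**
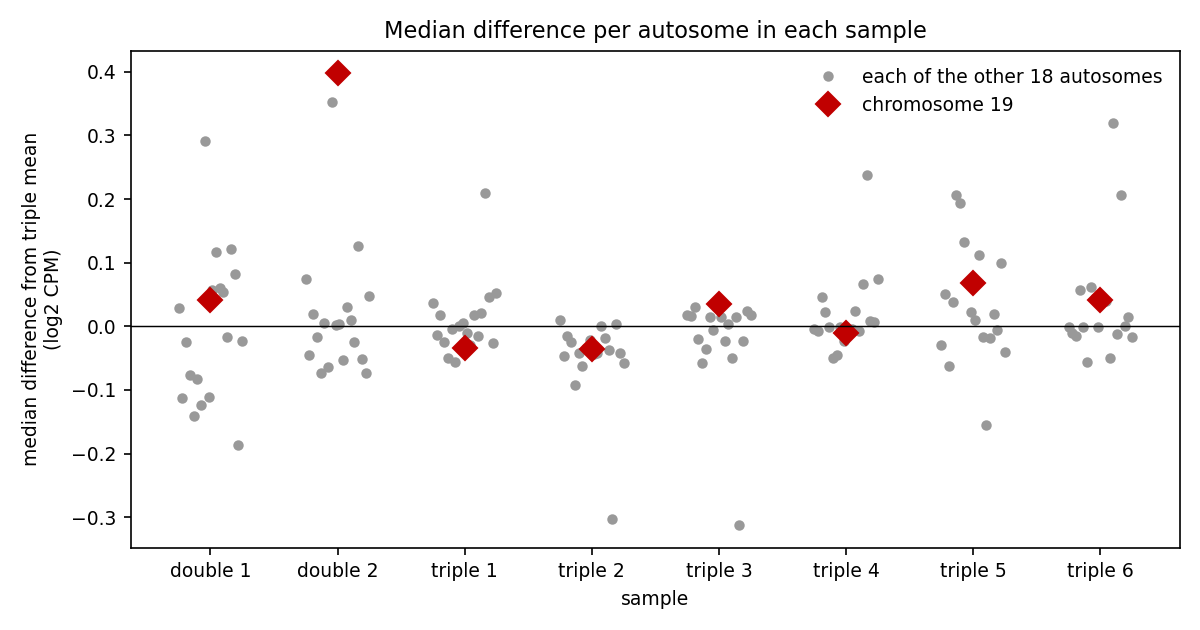
Median difference from the triple mean in log2 CPM (vertical axis) for each autosome in each of the 8 samples (horizontal axis), with chromosome 19 as a red diamond and the other 18 autosomes as grey points. In double 2 chromosome 19 sits at 0.40, above all other autosomes, and in double 1 it sits at 0.042, inside their spread.

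The upward difference in double 2 was shared by most members. In it 346 of 421 members (82.2%) lay above the triple mean, where 50.1% of the genes on other autosomes did. In double 1 it was 216 members (51.3%), and in the triples 45.1 to 57.7%. The middle 50% of members in double 2 ran from 0.13 to 0.70 log2, an interquartile range of 0.57 that was close to the 0.56 of the other autosomes in the same sample, so the members were displaced as a body and were not more scattered. In double 1 the interquartile range was 1.36 log2, against 0.36 to 0.48 in the triples. The summed CPM of members came to 4.22% and 4.16% of the TMM-scaled library size in the doubles and 3.01 to 3.19% in the triples. Without the member of most counts in each sample, these values were 4.02% and 3.99% against 2.89 to 3.07%. As a share of unscaled counts, all chromosome 19 genes took 3.27% in double 1, 4.32% in double 2 and 3.07 to 3.45% in the triples. The scaled sum of double 1 was thus above the triples. Its unscaled share and its median member lay within their range.

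Both samples also differed in how far single members went. In double 2, 313 members (74.3%) lay within 0.5 log2 of the chromosome median, 41 were at least 1 log2 above the triple mean and 16 at least 1 log2 below it. In double 1, 167 members (39.7%) lay within 0.5 log2 of the chromosome median, 62 were at least 1 log2 above and 83 at least 1 log2 below. The corresponding shares on other autosomes were 71.2% within 0.5 log2 in double 2 and 37.2% in double 1, so the wide scatter of double 1 was present there too.

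The difference in double 2 ran along the whole chromosome. Cut into 10 Mb bins by gene start, all 7 bins had a positive median in double 2, from 0.30 log2 in the bin from 10 to 20 Mb (52 members) to 0.57 log2 in the bin from 20 to 30 Mb (39 members). The gene-dense first bin, with 158 members, stood at 0.32 log2, and the bins from 30, 40 and 50 Mb, with 44, 87 and 33 members, stood at 0.49, 0.49 and 0.44 log2. The last bin, from 60 Mb, held only 8 members, at 0.40 log2. In each bin between 73.1% and 87.5% of members were above 0 in double 2.

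**Figure D2:**
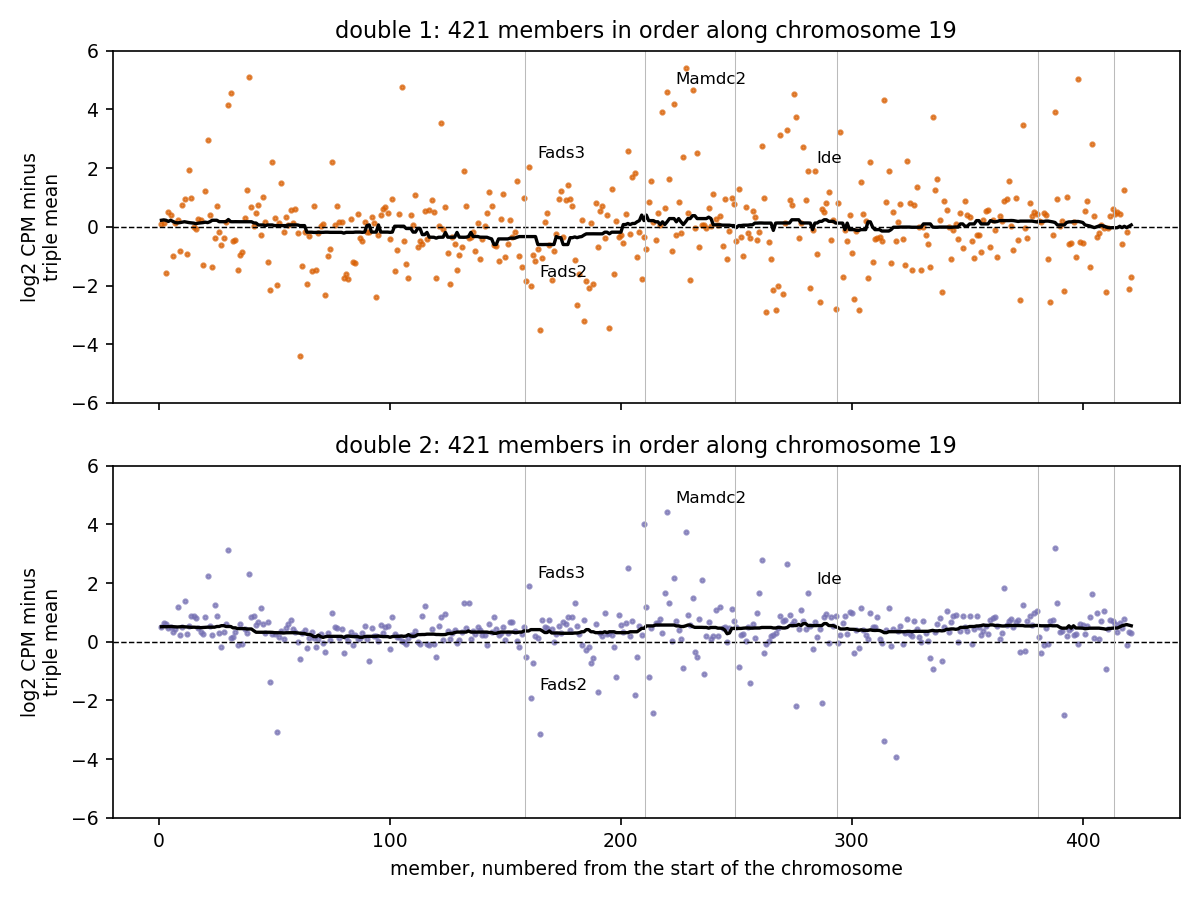
Difference from the triple mean in log2 CPM (vertical axis) of the 421 members, numbered in order from the start of chromosome 19 (horizontal axis), in double 1 (upper panel) and double 2 (lower panel), with a running median over 41 members in black and grey lines at the bounds of the 10 Mb bins. In double 2 the running median stays above 0 throughout while Fads2 lies below it, and in double 1 it crosses 0 repeatedly.

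In double 1, 6 of the 7 bins had a positive median, most of them near 0. The bin from 10 to 20 Mb stood at -0.34 log2, the bin from 20 to 30 Mb at 0.38 log2, and the other bins between 0.0028 and 0.13 log2. The triples' bin medians ran from -0.31 to 0.24 log2, with the widest range in the last bin of 8 members. In every 10 Mb bin, double 2 was above all 6 triple samples. With 5 Mb bins, 13 of 13 were positive in double 2 (0.27 to 0.68 log2) and 7 of 13 in double 1 (-0.49 to 0.62 log2). Double 2 was above all triples in 12 of these 13 bins, the exception being the bin from 30 to 35 Mb (21 members), where triple 1 stood at 0.49 log2 and double 2 at 0.27 log2.

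**Figure D3:**
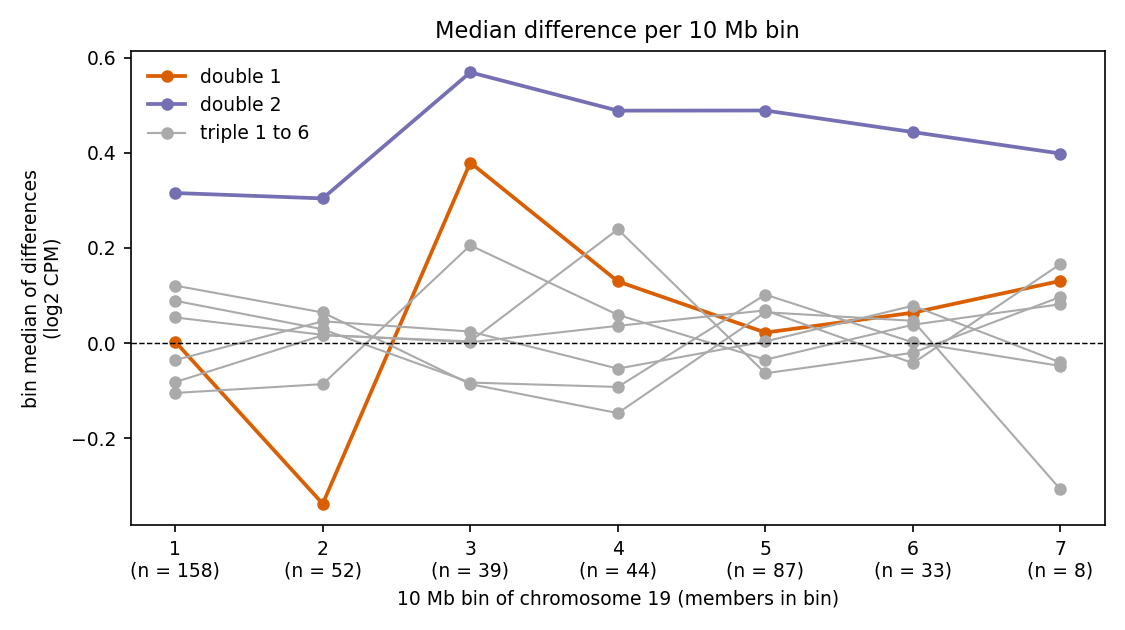
Bin median of the differences in log2 CPM (vertical axis) for the 7 bins of 10 Mb along chromosome 19 (horizontal axis, number of members in brackets), with double 1 in orange, double 2 in purple and the 6 triple samples in grey. Double 2 lies at 0.30 to 0.57 and above all triple samples in each bin, whereas double 1 lies between -0.34 and 0.38.

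Long stretches at this level were uncommon elsewhere in double 2. The other autosomes held 238 bins of 10 Mb with at least 10 members, and 15 of them (6.3%) reached the lowest chromosome 19 bin. Of these 15 bins, 10 were among the 13 bins of chromosome 8. The highest bin of another autosome in double 2 was at 0.46 log2. In double 1 the bins of the other autosomes ran from -1.70 to 1.29 log2, and its chromosome 19 bins lay inside that range.

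The level in double 2 was positive in groups of members by CPM, gene span and strand. It was 0.43, 0.42 and 0.34 log2 in 3 equal groups of members from low to high mean CPM, with 77.1%, 87.9% and 81.6% of members above 0. In 3 groups by gene span it was 0.33, 0.39 and 0.46 log2, from short to long. Members on the plus strand (209) and the minus strand (212) stood at 0.41 and 0.38 log2. Leaving out all members that the test called, the level was 0.34 log2 in double 2 and -0.12 log2 in double 1.

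Triple and double samples were then compared gene by gene with edgeR's quasi-likelihood test over all 17709 genes that passed the low-count filter, with fold changes as triple minus double and a call at a Benjamini-Hochberg adjusted p under 0.05. Of the 421 members, 43 (10.2%) were called lower in the triples, where 5.41% of all tested genes were, and 3 (0.713%) were called higher, where 2.94% were. Calls in either direction made up 8.35% of all tested genes. Among tested genes of the same level on other autosomes the shares were 5.6% lower and 2.99% higher. The median log2 fold change was -0.25 over members and -0.0020 over those other genes. At an unadjusted p under 0.05 there were 139 members (33.0%). The share of all tested genes at that threshold was not counted, so this number and the list counts at that p have no background beside them. A simpler count gave the same picture: in 117 members (27.8%) both doubles lay above all 6 triples, against 11.4% of tested genes, and in 16 members (3.8%) both lay below, against 12.8%.

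The calls leaned on double 1 although the chromosome-wide level was that of double 2. Of the 43 members called lower in the triples, 36 differed more from the triple mean in double 1 and 7 more in double 2. Differences were also wider in double 1 on the other autosomes (interquartile range 1.47 log2, against 0.56 in double 2). The same split was not counted for calls there. The median log2 fold change over members was -0.37 without double 1 and 0.036 without double 2, against -0.25 with both. Without triple 1, 15 members were called lower and 1 higher, while 635 of 17576 tested genes were called in either direction. How many calls on other chromosomes held whichever sample was left out was not counted, so the next number has no background beside it. Only 5 of the 46 calls held whichever sample was left out: Ide, Fads3, Mamdc2, Pdcd4 and Aldh3b1, and these were also called in all 9 other fits.

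A second fit took each sample's chromosome medians out of the counts, so that a member is tested against the level of its own chromosome. It called 23 members lower in the triples (5.46%, against 4.85% of tested genes) and 10 higher (2.38%, against 2.9%). All 23 and 3 of the 10 were also called by the first fit. The 7 members that edgeR called higher with centring and not without were Grk2, Fermt3, Rab3il1, Ostf1, Marveld1, Scd2 and Shtn1, all below the triple mean in both doubles. Without centring, DESeq2 called 5 of them, all but Grk2 and Marveld1. After the same centring, both doubles lay above all triples in 51 members (12.1%, against 11.6% on other autosomes) and below them in 54 (12.8%, against 12.7%). Once centred, chromosome 19 thus held as many separated genes in either direction as the other autosomes did.

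Ide encodes insulin-degrading enzyme, a zinc metalloprotease that cleaves insulin and amyloid-beta. It lies on the minus strand at 37268743 to 37337852. Its level was 258 CPM in double 1 and 222 CPM in double 2, and in the triples 63.7 CPM at the lowest, 70.1 CPM at the median and 77.6 CPM at the highest. Both doubles stood about the same distance above the triples, which were tightly grouped (mean 69.7 ± 5.30 CPM, SD, n = 6). The log2 fold change was -1.78 (SE 0.14, edgeR adjusted p = 0.00111), and in the chromosome-centred fit -1.61 (adjusted p = 0.00258). Ide exceeded the chromosome's own level by 1.85 log2 in double 1 and 1.27 log2 in double 2. Over the fits that left out 1 sample or changed the method, its log2 fold change ran from -1.87 to -1.61.

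The genes next to Ide differed from it and from one another. Within 500 kb of its start lie 7 other members, of which edgeR called only Exoc6, which encodes an exocyst subunit, with 58.4 and 24.9 CPM in the doubles and a triple range of 11.4 to 20.8 CPM (log2 fold change -1.40, adjusted p = 0.035, 0.0699 after centring and 0.412 without double 1). On the side of lower coordinates, 61.2 kb away, March5, which encodes a mitochondrial ubiquitin ligase, had 148 and 106 CPM in the doubles and 66.0 to 107 CPM in the triples. On the other side, 108 kb away, Kif11, the mitotic kinesin gene, had 13.8 and 86.1 CPM against 48.6 to 72.8 CPM. The difference of Kif11 from the triple mean was -2.08 log2 in double 1 and 0.55 log2 in double 2.

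In double 2 all neighbours but Hhex stood above the triple mean, while in double 1 Tnks2, Kif11 and Hhex stood below it. The bin from 35 to 40 Mb (23 members), which holds Ide and these neighbours, was the highest of the 5 Mb bins in both doubles. Its median was 0.62 log2 in double 1 and 0.68 log2 in double 2. The poly-ADP-ribosyltransferase gene Tnks2 had differences of -0.40 and 0.44 log2 in doubles 1 and 2, and the TATA-factor-associated ATPase gene Btaf1 had 0.13 and 1.08 log2. Cpeb3, which encodes a translational regulator, had 2.70 and 0.72 log2, and its reads cannot be told apart from those of March5, which overlaps it on the opposite strand. The homeobox gene Hhex had -0.12 and -0.25 log2. None of these, nor March5 or Kif11, was called by edgeR, while DESeq2 called Cpeb3 (adjusted p = 0.0135) and March5 (adjusted p = 0.0369).

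The fatty acid desaturase genes Fads3, Fads2 and Fads1 lie side by side and encode members of the family of front-end desaturases, which insert further unsaturated bonds into fatty acyl chains. Fads3 and Fads2 were called in opposite directions. Their promoters, from RefSeq on GRCm38.p6, are shown because these neighbours differ in their direction. Each runs from 250 bases before the start site to 50 after it, 5′ to 3′ on the gene's strand, and capitals mark the CCAAT box or its reverse complement ATTGG. The Fads3 window is chr19:10041298-10041597 (plus strand) and the Fads2 window is chr19:10101454-10101753 (minus strand).
Fads3: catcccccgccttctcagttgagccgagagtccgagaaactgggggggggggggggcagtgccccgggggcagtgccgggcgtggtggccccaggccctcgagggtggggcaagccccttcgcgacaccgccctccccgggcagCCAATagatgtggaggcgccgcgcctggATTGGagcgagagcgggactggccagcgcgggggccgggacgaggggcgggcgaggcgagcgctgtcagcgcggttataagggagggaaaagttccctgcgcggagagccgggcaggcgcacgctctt
Fads2: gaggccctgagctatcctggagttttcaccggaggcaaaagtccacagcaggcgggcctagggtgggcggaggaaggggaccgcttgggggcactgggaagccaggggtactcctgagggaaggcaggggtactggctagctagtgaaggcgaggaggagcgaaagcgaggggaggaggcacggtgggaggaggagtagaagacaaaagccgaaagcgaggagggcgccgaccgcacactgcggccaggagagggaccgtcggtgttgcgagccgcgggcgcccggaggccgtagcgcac

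The Fads3 window held 2 matches to CCAAT on either strand and the Fads2 window held 0, while 37.4% of 32851 promoters of this length held at least 1. GGGCGG was found 2 times in Fads3 and 1 time in Fads2 (35.7% of promoters held it), and TATAAA in neither (13.6%). Both windows were rich in CG dinucleotides, with 31 in Fads3 and 23 in Fads2, and had a GC content of 73.0% and 67.0%. These matches describe the letters of the windows only.

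Fads3 (10041548 to 10059671) had 151 and 135 CPM in the doubles, against a lowest of 24.7, a median of 36.8 and a highest of 51.1 CPM in the triples. Both doubles were over the triples without overlap, and the log2 fold change was -1.94 (SE 0.24, edgeR adjusted p = 0.00453). Fads2 (10064164 to 10101503), the gene of the enzyme that catalyses the first desaturation step of polyunsaturated fatty acid synthesis, had 10.3 and 10.9 CPM in the doubles, against a lowest of 32.0, a median of 37.6 and a highest of 68.6 CPM in the triples. Here both doubles were under all triples, nearly at the same level as each other, and the log2 fold change was 2.02 (SE 0.33, adjusted p = 0.0122, 0.0838 without double 1).

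Fads1 (10182888 to 10196870), whose enzyme acts after that of Fads2 in the same pathway, had 81.1 and 95.02 CPM in the doubles and 118, 152 and 250 CPM at the lowest, median and highest triple. The groups did not overlap, in the direction of Fads2, but edgeR did not call the gene (log2 fold change 0.90, adjusted p = 0.112, 0.0642 after centring). Against the chromosome level of their own sample, Fads2 departed by -2.04 and -2.32 log2 in doubles 1 and 2, Fads1 by -1.002 and -1.13 log2, and Fads3 by 2.01 and 1.497 log2. All were among the greatest departures, a choice that required groups without overlap after centring.

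**Figure D4:**
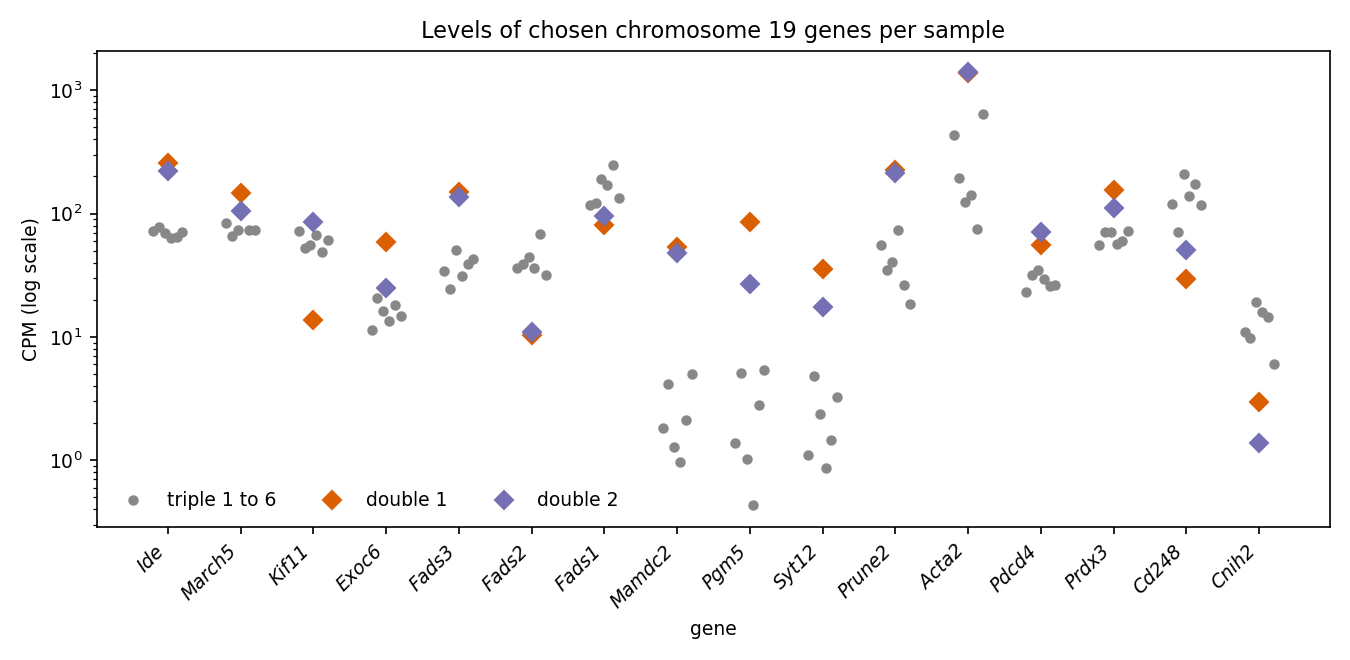
Level in CPM on a log axis (vertical) of 16 chromosome 19 genes (horizontal axis), with double 1 as an orange diamond, double 2 as a purple diamond and triples 1 to 6 as grey points. Ide, Fads3 and Mamdc2 show both doubles together above the triples, Fads2 shows both below, and Kif11 shows double 1 at 13.8 CPM and double 2 at 86.1 CPM on either side of the triples.

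Among members that stood above the chromosome level in both doubles, Mamdc2, which encodes a secreted matrix proteoglycan, had the largest called difference that held in all fits. It stood at 53.7 and 47.9 CPM in the doubles and at 0.961, 1.97 and 4.97 CPM at the lowest, median and highest triple. The log2 fold change was -4.31 (SE 0.54, edgeR adjusted p = 0.00457). Mamdc2, like Pgm5 and Syt12 below, had a triple median under 5 CPM and is a member only through the doubles. Pgm5, the gene of the adherens-junction protein aciculin, had 84.8 and 26.7 CPM against a triple median of 2.11 CPM (range 0.431 to 5.40). Its log2 fold change was -4.37 (SE 0.79, adjusted p = 0.0177, 0.149 without double 1). Syt12, a synaptotagmin gene, had 35.6 and 17.4 CPM against a median of 1.92 CPM (range 0.862 to 4.78), with a log2 fold change of -3.52 (adjusted p = 0.0128, 0.106 without double 1).

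Further members in this direction were of several kinds. Prune2 had 226 and 214 CPM against a triple median of 37.8 CPM (range 18.6 to 74.0; log2 fold change -2.40, adjusted p = 0.0143, 0.0883 without double 1). Carns1, which encodes carnosine synthase, an enzyme active in skeletal muscle, had 29.1 and 17.7 CPM against 4.50 CPM (range 1.72 to 6.24; -2.55, adjusted p = 0.0142, 0.116 without double 1). Ankrd1, a stretch-responsive gene of striated muscle, had 822 and 518 CPM against 79.3 CPM (range 21.5 to 229; -2.64, adjusted p = 0.0465, 0.28 without double 1 and 0.0616 after centring).

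In each of these genes both doubles stood above every triple. They were chosen as greatest departures, and that choice required groups without overlap after centring, so this separation is no separate result. Acta2, Rbm20 and Fam189a2 were chosen in the same way. The smooth muscle actin gene Acta2 had 1384 and 1395 CPM against a median of 167 CPM (range 75.7 to 644), without overlap, and was not called by edgeR (adjusted p = 0.066; DESeq2 0.0123). Rbm20, a splicing regulator of striated muscle, and Fam189a2 were not called by edgeR either, with adjusted p of 0.0773 and 0.0723, while DESeq2 called both (0.0166 and 0.0138) and limma-voom called Rbm20 (0.0387). The summed markers of embryonic muscle were likewise higher in both doubles than in every triple, and their part in these differences was not tested.

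Members that stood below the chromosome level in both doubles included Cd248 and Cnih2, which with Fads2 were the only 3 that edgeR called higher in the triples without centring. Cd248, which encodes endosialin, a surface protein of fibroblasts and pericytes, had 29.2 and 50.3 CPM against a triple median of 130 CPM (range 70.8 to 211). The log2 fold change was 1.81 (SE 0.43, edgeR adjusted p = 0.0397, 0.254 without double 1). Its call was also lost on leaving out any of triples 1, 3, 4, 5 and 6. The 7 fibroblast markers summed to 8835 and 9654 CPM in the doubles and 9748 to 35190 CPM in the triples, and their part in the Cd248 difference was not tested.

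Cnih2, which encodes a cornichon subunit of AMPA receptors, had 2.96 and 1.37 CPM against a triple median of 12.7 CPM (range 6.04 to 19.2). The log2 fold change was 2.56 (SE 0.55, adjusted p = 0.0287, 0.0842 without double 1). It overlaps Yif1a on the opposite strand, and its call was also lost without triple 1, 4 or 5. The alpha-2A adrenergic receptor gene Adra2a had 3.89 and 3.14 CPM against 19.5 CPM (range 4.69 to 48.7), and the myelin regulatory factor gene Myrf had 0.405 and 0.542 CPM against 4.83 CPM (range 0.730 to 95.1). Neither was called by edgeR (adjusted p = 0.0733 and 0.169), and DESeq2 called Adra2a (0.00227). Cnih2, Adra2a and Myrf stood under 5 CPM in both doubles and are members only through the triples. Fosl1, Sema4g, Shtn1 and Ms4a6d completed the 10 members with the greatest downward departure, and their differences were larger in double 1 (-4.40 to -1.93 log2) than in double 2 (-0.94 to -0.57 log2).

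The members were also grouped by role, in 12 lists that together hold 218 of them. Over all 421 members the median difference was 0.042 log2 in double 1 and 0.40 log2 in double 2, and each list is set beside that. As background to the calls in the lists, edgeR called 46 of the 421 members, DESeq2 106 and limma-voom 30. Over all 17709 tested genes they called 1478, 3380 and 1070. The 203 members in no list stood at 0.066 and 0.38 log2. Among lists of at least 10 members the medians ran from -0.20 to 0.68 log2 in double 2 and from -1.89 to 1.51 log2 in double 1.

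Genes of DNA replication, repair and cell division had 23 members, of which 0 passed edgeR's adjusted test, 5 had an unadjusted p under 0.05, and DESeq2 called 5 and limma-voom 0. In double 2 all 23 were above 0, with a median of 0.55 log2, and in double 1 only 7 were, with a median of -0.30 log2. The mitotic kinesin Kif20b stood at 5.34 and 43.1 CPM in doubles 1 and 2 against 11.9 to 38.1 CPM in the triples, and Cdca5, which encodes sororin, at 2.79 and 17.3 CPM against 11.9 to 18.3 CPM. Smc5, a subunit of the SMC5/6 repair complex, was the member of smallest p, at 85.6 and 172 CPM against 29.9 to 72.9 CPM (edgeR adjusted p = 0.0662, DESeq2 0.0212).

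Genes of RNA processing, ribosomes and translation had 26 members, 24 of them above 0 in double 2 (median 0.68 log2) and 13 in double 1 (median -0.084 log2). Of these, 2 were called lower in the triples: Rrp12, a ribosome assembly factor, at 128 and 54.7 CPM against 17.0 to 35.2 CPM, and Prpf19, a splicing factor, at 341 and 233 CPM against 155 to 193 CPM. The Prpf19 call did not hold after centring (adjusted p = 0.15), and Rrp12 had an adjusted p of 0.241 without double 1. Chromatin and transcription cofactors had 20 members, with medians of -0.21 and 0.37 log2 in doubles 1 and 2. Among them edgeR called only Pcgf5, a Polycomb ring finger gene, lower in the triples, at 53.7 and 54.0 CPM against 21.5 to 34.3 CPM (adjusted p = 0.0326, 0.0813 after centring and 0.145 without double 1).

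The list of mitochondrial protein genes had 25 members, and 7 were called, all lower in the triples, where 10.2% of all members were. It also holds Got1, which encodes a cytosolic aminotransferase, and Fam111a, which encodes a nuclear protease. The medians over all 25 were 0.73 log2 in double 1 and 0.51 log2 in double 2, with 18 and 24 members above 0. Genes of the mitochondrial genome took 4.04% and 2.01% of counts in the doubles and 1.16 to 2.33% in the triples, the summed adult muscle markers were also highest in double 1 (71940 CPM against 134 to 14080 CPM in the triples), and the part of either in these values was not tested. Prdx3, the mitochondrial peroxiredoxin gene, had 155 and 111 CPM against 55.8 to 71.7 CPM in the triples (log2 fold change -1.04, SE 0.18, edgeR adjusted p = 0.0141, 0.105 without double 1). Cox15, of cytochrome oxidase assembly, had 49.1 and 47.8 CPM against 26.9 to 31.6 CPM (-0.73, adjusted p = 0.0221, 0.073 after centring), and it overlaps Entpd7 and Cutc. The remaining 5 called in the list were Ndufv1, Cox8a, Twnk, Pcx and the cytosolic Got1. Pcx, which encodes pyruvate carboxylase, rested on double 1, with 158 CPM there and 7.33 CPM in double 2 against 3.28 to 14.9 CPM, and its log2 fold change without double 1 was 0.029.

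Muscle and cytoskeleton genes had 23 members, of which 7 were called, all lower in the triples, where 10.2% of all members were. The list medians were 1.51 log2 in double 1 and 0.38 log2 in double 2. The called members included Pgm5, Ankrd1, Ehbp1l1, Ablim1, Kank1 and Klc2. Ablim1, an actin-binding LIM protein gene, had 342 and 150 CPM against 26.0 to 95.2 CPM (adjusted p = 0.0334, 0.315 without double 1). The Z-disc gene Actn3 had 1793 and 260 CPM against 6.40 to 354 CPM, and Ankrd2, a striated muscle ankyrin repeat gene, had 425 and 1.99 CPM against 2.49 to 120 CPM, so that double 2 was under the lowest triple. The summed adult muscle markers were 71940 CPM in double 1, 2732 CPM in double 2 and 134 to 14080 CPM in the triples, and their part in these values was not tested.

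Leukocyte genes had 12 members, with 0 called by edgeR (3 at an unadjusted p under 0.05, 1 by DESeq2 and 0 by limma-voom). All 12 were below the triple mean in double 1 (median -1.89 log2), while 5 were above it in double 2 (median -0.20 log2). Ms4a4c stood at 1.38 and 22.2 CPM in the doubles against 8.44 to 26.1 CPM in the triples. The NF-kappaB, JAK, interferon and death receptor genes had 16 members, also with 0 called (0 at an unadjusted p under 0.05, and 0 by DESeq2 or limma-voom), and medians of -0.59 and 0.27 log2. Ifit3, an interferon-induced gene, had 17.0 and 90.6 CPM against 45.1 to 176 CPM. The summed leukocyte markers, 762 CPM in double 1 and 1689 CPM in double 2 against 1610 to 2470 CPM, were lowest in the same sample, and their part in these values was not tested. The median leukocyte gene lay below the chromosome level in both doubles.

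**Figure D5:**
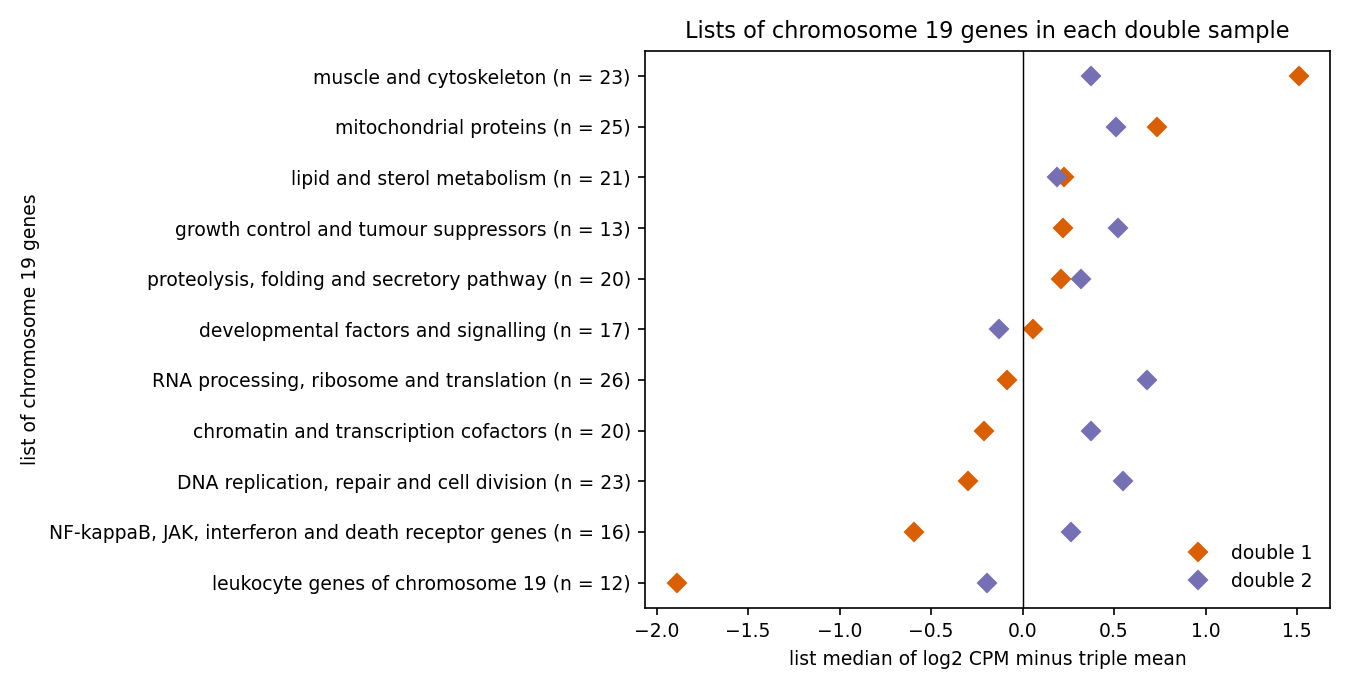
List medians of the difference from the triple mean in log2 CPM (horizontal axis) for the 11 lists of chromosome 19 genes with at least 10 members (vertical axis), with double 1 in orange and double 2 in purple. In double 2 the lists run from -0.20 to 0.68, and in double 1 from -1.89 for leukocyte genes to 1.51 for muscle and cytoskeleton genes.

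Lipid and sterol genes had 21 members, of which 3 were called lower in the triples (Fads3, Pla2g16 and Pank1) and 1 higher (Fads2). Their medians were 0.22 log2 in double 1 and 0.19 log2 in double 2. Pla2g16, a phospholipase gene, had 149 and 98.7 CPM against 25.5 to 51.4 CPM (log2 fold change -1.60, SE 0.26, edgeR adjusted p = 0.0121, 0.1 without double 1). The stearoyl-CoA desaturase Scd1 had 1501 CPM in double 1 and 59.2 CPM in double 2 against 55.8 to 287 CPM, and its neighbour in function Scd2 had 190 and 335 CPM against 405 to 590 CPM. Scd2 was not called by edgeR before centring (adjusted p = 0.0656) and was called higher in the triples after it (log2 fold change 1.17, adjusted p = 0.0217), and also by DESeq2 (0.00646) and limma-voom (0.0473) without centring.

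Growth control genes had 13 members, and 3 were called lower in the triples. Pdcd4, a translation inhibitor and tumour suppressor, had 55.4 and 71.5 CPM against 23.1, 28.0 and 35.1 CPM at the lowest, median and highest triple (log2 fold change -1.14, SE 0.19, edgeR adjusted p = 0.0138), and it overlaps Bbip1 on the opposite strand. Rps6kb2, a ribosomal protein S6 kinase gene, had 46.8 and 36.1 CPM against 18.5 to 22.5 CPM (-1.05, adjusted p = 0.0116, 0.0822 without double 1). Gstp1, a glutathione transferase gene with a close copy beside it in Gstp2, had 41.9 and 38.5 CPM against 18.2 to 25.7 CPM (-0.93, adjusted p = 0.0209, 0.0538 after centring), and its counts may be shared with that copy.

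Developmental and signalling genes had 17 members, with medians of 0.058 log2 in double 1 and -0.13 log2 in double 2, where 8 were above 0. The calls were Cd248, higher in the triples, and Klf9, lower. Klf9, a Krüppel-like factor gene induced by glucocorticoid and thyroid hormone, had 430 CPM in double 1 and 35.1 CPM in double 2 against 14.1 to 37.3 CPM in the triples, so its call rested on double 1 alone (log2 fold change -2.96, adjusted p = 0.0315; -0.24 and 0.884 without double 1). The wide spread within this list in double 2 ran from -2.10 log2 for the retinol carrier gene Rbp4 to 2.12 log2 for the ciliary transcription factor gene Rfx3.

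Proteolysis and secretory pathway genes had 20 members with medians of 0.21 and 0.32 log2, of which Ide and Exoc6 were called lower in the triples. The 5 members of highest CPM, Ahnak, Fth1, Cfl1, Malat1 and Ddb1, had 0 edgeR calls (2 at an unadjusted p under 0.05, 2 by DESeq2 and 0 by limma-voom). The ferritin heavy chain gene Fth1 had 2009 and 1453 CPM against 858 to 1182 CPM (edgeR adjusted p = 0.0704, DESeq2 0.0068), and the cofilin gene Cfl1 had 331 CPM in double 1 and 1200 CPM in double 2 against 811 to 1190 CPM. The nuclear RNA Malat1 followed the chromosome, at 0.16 and 0.45 log2, and Neat1 lay below it, at -1.73 and -0.38 log2. The adjusted p of these RNAs was 0.426 and 0.247.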

How the data were processed

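RNA-seq was measured in 8 samples, and the authors deposited 1 table per sample with whole-number read counts per gene and each gene's chromosome, start and end. HTSeq, DESeq2 and the builds mm10 and GRCm38 are listed in the submitters' processing notes, without their roles. Aligner, annotation release and strand setting were not given in the sources used here, so reads of overlapping genes cannot be told apart. Starts, which the files count from 0, are printed counted from 1.

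Low counts were removed with filterByExpr, libraries were scaled by TMM, and the quasi-likelihood test of edgeR 4.0.16 (R 4.3.3; triple minus double, no covariate) was run on all 8 samples, with p-values adjusted over all 17709 genes. SEs were derived from the test statistic. CPM used the TMM-scaled library sizes of the filtered genes, and log2 CPM a prior count of 2. The chromosome-centred fit added each sample's chromosome medians to the offsets. The scripts were tested on simulated data. Libraries held 26847202 to 32082535 counts, and no samples agreed within sampling noise (the median chi-square per gene was at least 8.33 in every pair).

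Members, lists and the rule for named genes were chosen with earlier results of these data known. The rule takes Ide and members within 500 kb, the 10 greatest departures each way (ranked by the smaller departure of the doubles, without overlap of the groups after centring), the 10 called members of smallest p each way, the 5 of highest mean CPM and, from each list, up to 4 called or 2 uncalled members of smallest p. Some genes that it takes are not reported here. Other members named were chosen after their values were seen. RefSeq promoters were matched by symbol for 345 of 421 members. Alternatives were DESeq2 1.42.0, limma-voom (limma 3.58.1), other scalings, filters and prior counts, robust dispersion, the description code as a term, other bins, a median reference, and leaving out each sample.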

Additional observations from a re-analysis of the deposited data

Results flagged for a closer look

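In 4 of 63 groups of triple samples looked at (55 named genes, the 10 Mb bins and the chromosome level), 1 sample lay far from the other triples, and chance gives about 1 in 20. In the bin from 10 to 20 Mb, triple 2 had a median difference of -0.09 log2, below the other triples. Fads2 stood at 68.6 CPM in triple 5, above the other triples. Myrf stood at 95.1 CPM in triple 3, where the other triples were at or below 6.21 CPM. Kank1 stood at 28.1 CPM in triple 3, where the other triples were at or below 9.09 CPM.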

How the results depend on the processing

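The double 2 level stayed positive under all alternatives run, and was 0.34 log2 (0.35 relative to the other autosomes) without the called members. The double 1 level, 0.042 log2, was 0.11 under RLE and -0.094 under upper-quartile scaling, and -0.12 without the called members. Relative to the other autosomes (0.060 log2) it was 0.11 at a mean CPM of at least 1, 0.030 against the median of the triples, -0.072 without the called members, and 0.026 to 0.065 with 1 triple left out (lowest without triple 1). Its positive bins, 6 of 7, became 1 under upper-quartile scaling, 2 without the called members and 7 of 13 with 5 Mb bins. The bin from 10 to 20 Mb reversed in double 1 to 0.16 log2 at a mean CPM of at least 20. Members called lower in the triples, 43, became 96 by DESeq2, 26 by limma-voom, 24 with the description code as a term and 23 after centring. Those called higher, 3, became 10 by DESeq2 and 10 after centring. Calls over all 17709 tested genes, in either direction, moved as well. They were 1478 in the main fit, 3380 by DESeq2, 1070 by limma-voom, 962 with the code term and 1372 after centring. Leaving out 1 sample gave 9 to 65 called lower and 0 to 81 called higher, both extremes coming from the doubles. Of the 46 calls, 8 were kept without double 1, 1 of the other members changing sign, and 15 without triple 1. Over all tested genes, calls in the fits that left out 1 sample were likewise fewest without double 1 and most without double 2. The swing in member calls was therefore not particular to chromosome 19. The cause of these changes was not tested. No paired analysis was possible because replicate numbers were given in accession order and pair no samples. With 2 doubles, a value shown by 1 of them has no replicate.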

Other observations

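Beyond chromosome 19, the autosome next in order in double 2 was chromosome 8, which was the highest of the other autosomes in both doubles, at 0.29 log2 in double 1 and 0.35 log2 in double 2. Chromosome 15 stood at 0.12 and 0.13 log2 in the doubles and at 0.21, 0.24 and 0.21 log2 in triples 1, 4 and 6, but at -0.30 and -0.31 log2 in triples 2 and 3. Chromosome 13 stood at 0.32 log2 in triple 6 and at -0.16 log2 in triple 5. Among the triples, medians of 0.2 log2 or more in size were found in 7 of 114 pairs of autosome and sample, and none of these was chromosome 19.

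Some members with a large difference in a single double were in none of the groups described. Sfrp5, which encodes a secreted Wnt inhibitor, had 6.07 and 0.505 CPM in doubles 1 and 2 against 0.564 to 70.0 CPM in the triples. Gda, the guanine deaminase gene, had 56.9 and 9.24 CPM against 28.8 to 74.6 CPM, and Ppp1r3c, which encodes a glycogen-targeting phosphatase subunit, had 100.4 and 1.59 CPM against 0.895 to 31.9 CPM. As3mt, the arsenite methyltransferase gene, was among the 7 calls with the larger difference in double 2, at 20.97 and 39.9 CPM against 7.13 to 16.03 CPM (log2 fold change -1.39, edgeR adjusted p = 0.0363, 0.127 without double 2). These genes were chosen after their values were seen.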
